A study of Mus musculus with 6 samples.

Results

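Liver and gut microRNAs were followed in whole mouse aortas as the 6 assays named miR-122, miR-192, miR-194, miR-193b, miR-802 and miR-216b, of 517 microRNA assays measured. They were picked by name, without passenger strands. All 6 were on the array, on the first of its 2 cards, and all 6 gave a product in every aorta. The tested mice carried LysM-Cre/Dicerflox/flox/Apoe-/- (Dicer_KO, 3 aortas), in which Cre from the lysozyme M locus cuts the gene of Dicer, the enzyme that releases most microRNAs from their hairpins. Their littermates carried LysM-Cre/Dicerwt/wt/Apoe-/- (Dicer_WT, 3 aortas). All 6 mice were male, lacked Apoe, carried the Cre, and received a fat-rich diet with 21% crude fat for 12 weeks from an age of 6 to 8 weeks. The vessels were perfused in situ with RNAlater before harvest. This driver works in myeloid cells such as macrophages and neutrophils, and not in hepatocytes or pancreatic cells. The labels name the macrophage as cell type, but the RNA came from whole aortas. Dicer itself was not measured, so the loss of Dicer had no check in these data.

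A microRNA is cut from a hairpin transcript and guides silencing proteins to messenger RNAs that pair with its seed. miR-122 is the dominant microRNA of hepatocytes, and is also known as a plasma marker of liver injury. miR-192 and miR-194 are abundant in liver, gut epithelium and kidney, and share a transcript. miR-802 is known from liver, gut and pancreas. The name of the group does not cover every member: miR-193b is best known from adipose and muscle cells, where it promotes brown fat differentiation in mice, and miR-216b is a microRNA of pancreatic acinar cells. No liver, gut, pancreas or blood sample was measured, so the source of these microRNAs in the vessel wall cannot be read from the labels or the array.

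The sequences are shown because they set which members share targets and which loci each assay can report. They were taken from RefSeq on GRCm38.p6 for 5 of 6 members, with the guide arm assumed for assay names that carry no arm. Capitals mark the seed, bases 2 to 8 from the 5′ end.
miR-192-5p: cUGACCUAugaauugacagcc
miR-215-5p, the seed relative of miR-192: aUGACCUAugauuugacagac
miR-194-5p: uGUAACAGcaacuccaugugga
miR-193b-3p: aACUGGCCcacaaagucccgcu
miR-193a-3p, the seed relative of miR-193b: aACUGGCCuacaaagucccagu
miR-802-5p: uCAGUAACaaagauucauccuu
miR-216b-5p: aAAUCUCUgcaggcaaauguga
miR-216a-5p, a cluster neighbour of miR-216b: uAAUCUCAgcuggcaacuguga
No seed was shared between any of these 5 members. miR-192 and miR-215 share their seed and 18 of 21 positions, and miR-193b and miR-193a, read by the assay miR-193, share theirs and 19 of 22. The seeds of miR-216b and miR-216a differ, although 18 of 22 positions are the same.

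miR-194 is encoded at 2 loci, with the same mature sequence in both hairpins, shown here with the mature microRNA in capitals.
Mir194-2, chr19:6264643-6264728, plus strand: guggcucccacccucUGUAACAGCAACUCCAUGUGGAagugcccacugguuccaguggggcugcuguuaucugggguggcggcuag
Mir192, chr19:6264844-6264932, plus strand: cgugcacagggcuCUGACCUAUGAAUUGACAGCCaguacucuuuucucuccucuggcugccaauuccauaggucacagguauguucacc
Mir194-1, chr1:185313319-185313385, plus strand: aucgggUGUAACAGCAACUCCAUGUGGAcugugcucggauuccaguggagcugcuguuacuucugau
Mir194-2 and Mir192 lie 115 bases apart on chromosome 19, and Mir194-1 lies 195 bases from Mir215 on chromosome 1. The miR-194 assay therefore cannot tell the miR-192 locus from the miR-215 locus. Mir193b lies 4238 bases from Mir365-1 on chromosome 16, where Mir802 also lies, at chr16:93369720-93369816. The same mature miR-365 is also encoded by Mir365-2, 14365 bases from Mir193a on chromosome 11. The miR-365 assay therefore cannot tell the miR-193b locus from the miR-193a locus. Mir216b, at chr11:28746191-28746276, is followed by Mir216a 10735 bases on and by Mir217 a further 6644 bases on.

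Each assay was read as a threshold cycle (Ct), the PCR cycle at which product appears, with 40 for no product and detection taken here as below 35. One cycle less means about a doubling of RNA. Between 349 and 366 assays were detected in Dicer_KO aortas and between 374 and 378 in Dicer_WT aortas. Levels are given as the authors' relative quantity, a linear ratio to small nuclear and nucleolar RNAs of the same aorta scaled so that the 3 Dicer_WT aortas have a geometric mean of 1. Ct values of different assays depend on each assay's own efficiency and were not compared as levels. All 4 smooth muscle markers (miR-143, miR-145, miR-133a and miR-1) and all 4 endothelial markers were detected in all 6 aortas. The summed relative quantity of the smooth muscle markers ran from 2.49 to 3.70 in Dicer_KO aortas and from 3.97 to 4.06 in Dicer_WT aortas, without overlap. That of the endothelial markers ran from 3.17 to 4.19 in Dicer_KO aortas and from 3.75 to 4.42 in Dicer_WT aortas. Over all 377 assays tested, 32.6% had every Dicer_KO aorta below every Dicer_WT aorta. The median log2 fold change of the smooth muscle markers was -0.37, near the -0.42 of all assays. Taken singly, miR-133a and miR-1 overlapped between genotypes. In whole tissue, a change in the number of cells of a type and a change in RNA per cell cannot be told apart.

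The comparison asked how microRNAs of other organs, detected in the atherosclerotic aorta, differed when Dicer was deleted by LysM-Cre. Of the 6 microRNAs, 5 had a mean above that of Dicer_WT aortas and 1, miR-193b, lay close to it. None passed the test across all 377 assays tested (limma, adjusted p under 0.05), where the calls were 0% higher and 1.86% lower. At an unadjusted p under 0.05, 2 of the 6 were higher, miR-802 and miR-216b, against 2.39% of all assays higher and 24.4% lower. In 0 of the 6 did the genotypes fail to overlap, against 2.39% of all assays with every Dicer_KO aorta higher and 32.6% with every one lower. The median log2 fold change of the 6 was 1.00, against -0.42 over all assays tested, of which 21.8% were above 0. Since the members were chosen with earlier results of these data known, these counts describe them and are no test of them.

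**Figure D1:**
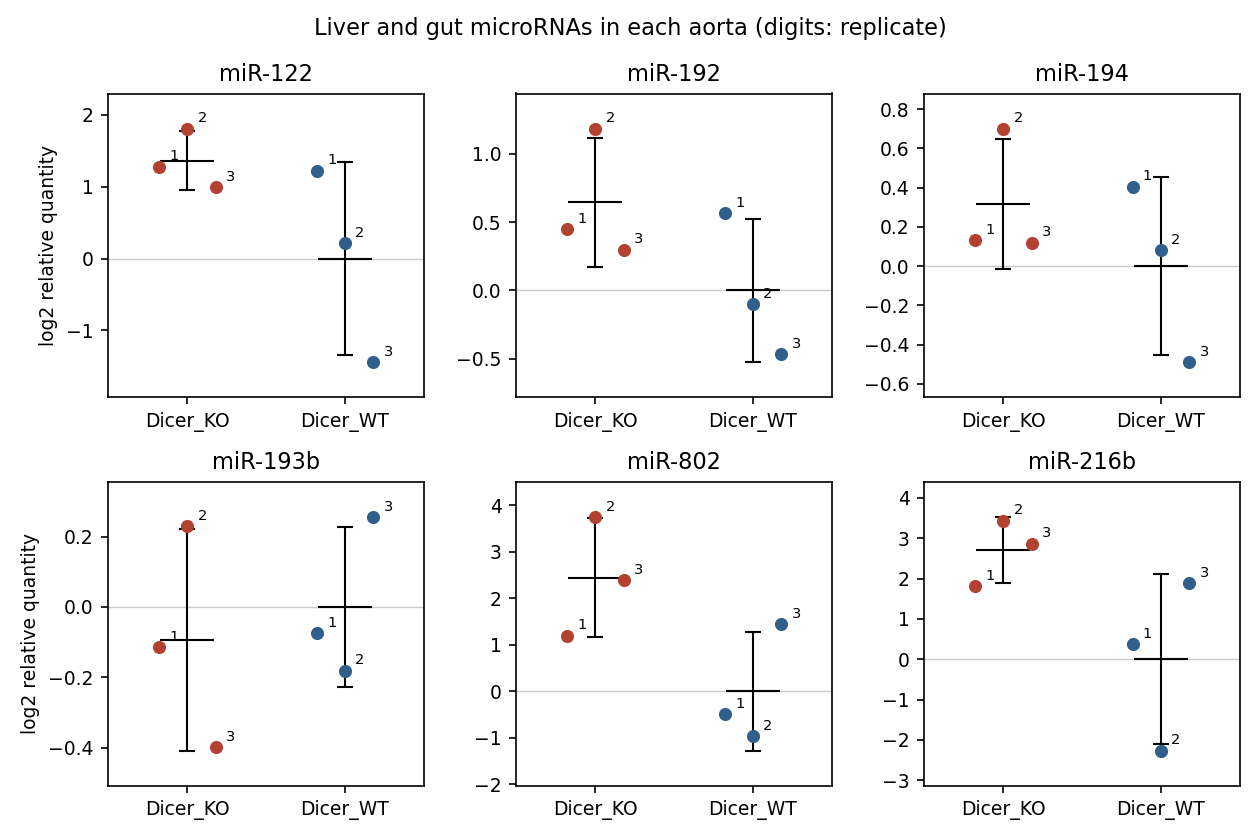
Log2 relative quantity (y axis) of each liver and gut microRNA in each aorta, Dicer_KO left in red and Dicer_WT right in blue, with the replicate number beside each point, and the mean and SD as bars (n = 3 each). The ranges of the genotypes overlap in all 6 panels, and Dicer_KO replicate 2 has the highest value of all aortas in every panel except that of miR-193b.

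miR-122 had Ct values of 22.15, 21.91 and 22.67 in Dicer_KO aortas, against 21.95, 23.25 and 24.94 in Dicer_WT aortas. Its relative quantities were 2.43, 3.50 and 1.99 in Dicer_KO replicates 1 to 3, against 2.33, 1.16 and 0.369 in Dicer_WT replicates 1 to 3. Dicer_WT replicate 1 thus lay inside the Dicer_KO range, and the Dicer_WT aortas spanned 6.33-fold where the Dicer_KO aortas spanned 1.76-fold. The log2 fold change was 1.36 ± 0.687 (SE, n = 3 each, limma adjusted p = 0.228), with a 95% interval of -0.33 to 3.05. It was 0.64 without Dicer_WT replicate 3, the aorta with the least miR-122.

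For miR-192 the relative quantities were 1.37, 2.27 and 1.23 in Dicer_KO aortas, against 1.48, 0.934 and 0.723 in Dicer_WT aortas. miR-194 showed 1.10, 1.63 and 1.09 in Dicer_KO aortas, against 1.33, 1.06 and 0.712 in Dicer_WT aortas. In both, Dicer_KO replicate 2 was the highest aorta, Dicer_WT replicate 1 the next highest and Dicer_WT replicate 3 the lowest. The log2 fold changes were 0.64 ± 0.369 for miR-192 (SE, n = 3 each, limma adjusted p = 0.265, 95% interval -0.26 to 1.55) and 0.32 ± 0.307 for miR-194 (adjusted p = 0.452, interval -0.44 to 1.07). Single aortas weighed heavily: miR-192 was at 0.37 without Dicer_KO replicate 2 and 0.41 without Dicer_WT replicate 3, and miR-194 at 0.13 and 0.073 without the same aortas and at 0.52 without Dicer_WT replicate 1. Relative to U87 and Y1, RNAs that the authors did not use as references, the values were 1.16 and 0.83, and with non-normalized Ct 0.42 and 0.092.

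Because miR-192 and miR-194 were read on 1 card of the same aorta, their log2 ratio does not depend on the reference RNAs. It was 1.38, 1.55 and 1.24 in Dicer_KO aortas, against 1.22, 0.88 and 1.09 in Dicer_WT aortas, so that the genotypes did not overlap by a narrow margin. The difference was 0.33, with means of 1.39 ± 0.152 in Dicer_KO and 1.06 ± 0.173 in Dicer_WT aortas (SD, n = 3 each, exact two-sided permutation p = 0.1, which is as low as 3 aortas against 3 allow, and 0.3 adjusted over 3 pairs of cluster partners). It stayed between 0.24 and 0.41 when any 1 aorta was left out.

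miR-215, which shares the seed of miR-192 and the second locus of miR-194, correlated with them weakly over the 6 aortas (Pearson's r -0.14 with miR-192 and 0.11 with miR-194) and somewhat more within genotypes (0.35 and 0.50). Its relative quantities were 0.578, 0.976 and 0.665 in Dicer_KO aortas, against 0.855, 1.39 and 0.839 in Dicer_WT aortas. The log2 fold change was -0.47 ± 0.311 (SE, n = 3 each, limma adjusted p = 0.315), a sign that turned to 0.040 relative to U87 and Y1 and to 0.36 after quantile normalization. The log2 ratio of miR-192 to miR-215 ran from 8.02 to 8.37 in Dicer_KO aortas and from 6.55 to 7.92 in Dicer_WT aortas. That of miR-194 to miR-215 ran from 6.78 to 6.99 in Dicer_KO aortas and from 5.67 to 6.70 in Dicer_WT aortas. Neither pair of ranges overlapped. These 2 ratios were looked at after the values had been seen and were not tested.

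The assays whose profile over the 6 aortas was most like that of miR-122 were sought among 324 others detected in all aortas. The first was miR-451, an erythrocyte microRNA that matures without Dicer, with Pearson's r of 0.99 over 6 aortas and 0.999 within genotypes (each value minus its group mean). The next were miR-25 at 0.98 and miR-486, a further erythroid microRNA, at 0.96. The relative quantities of miR-451 were 2.501, 3.12 and 2.15 in Dicer_KO aortas, against 1.91, 1.14 and 0.461 in Dicer_WT aortas, in the same order within each genotype as those of miR-122. The log2 ratio of miR-122 to miR-451 averaged -2.14 ± 0.144 in Dicer_KO and -2.14 ± 0.308 in Dicer_WT aortas (SD, n = 3 each), a difference of 0.0040, and spanned 0.613 over all 6 aortas. So the log2 fold change of 1.36 in miR-122 had the size of that in miR-451, which was 1.36 as well. This pair was chosen as the most alike of many, on few aortas that share their reference RNAs, so its r is a description. A high r did not always go with an equal change: the log2 fold change was 0.21 for miR-25 and 1.12 for miR-486. The log2 ratio of miR-122 to miR-25 differed by 1.15 between genotypes, that to miR-192 by 0.72 and that to miR-194 by 1.04. These ratios were not tested.

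miR-192 and miR-194 were most like nearly the same assays. For miR-192 these were miR-486 (r = 0.94), miR-25 (0.94) and miR-699 (0.93), and for miR-194 they were miR-25 (0.98), miR-699 (0.96) and miR-486 (0.93). miR-192 and miR-194 correlated with each other at 0.95, and with miR-122 at 0.92 and 0.93. Of the erythroid list, 2 of 3 microRNAs were on the array (miR-451 and miR-486, but not miR-144), both detected in every aorta. Their summed relative quantity ran from 4.10 to 6.28 in Dicer_KO aortas and from 1.00 to 3.60 in Dicer_WT aortas, without overlap. Taken singly, miR-451 did not overlap, as held for 2.39% of all assays tested in that direction. miR-486 did overlap, with Dicer_WT replicate 1 at 1.70 and Dicer_KO replicate 1 at 1.60. Neither of the 2 passed over all assays (log2 fold changes 1.36 and 1.12, limma adjusted p = 0.18 and 0.20). The part of blood in the values of miR-122, miR-192 and miR-194 was not tested.

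**Figure D2:**
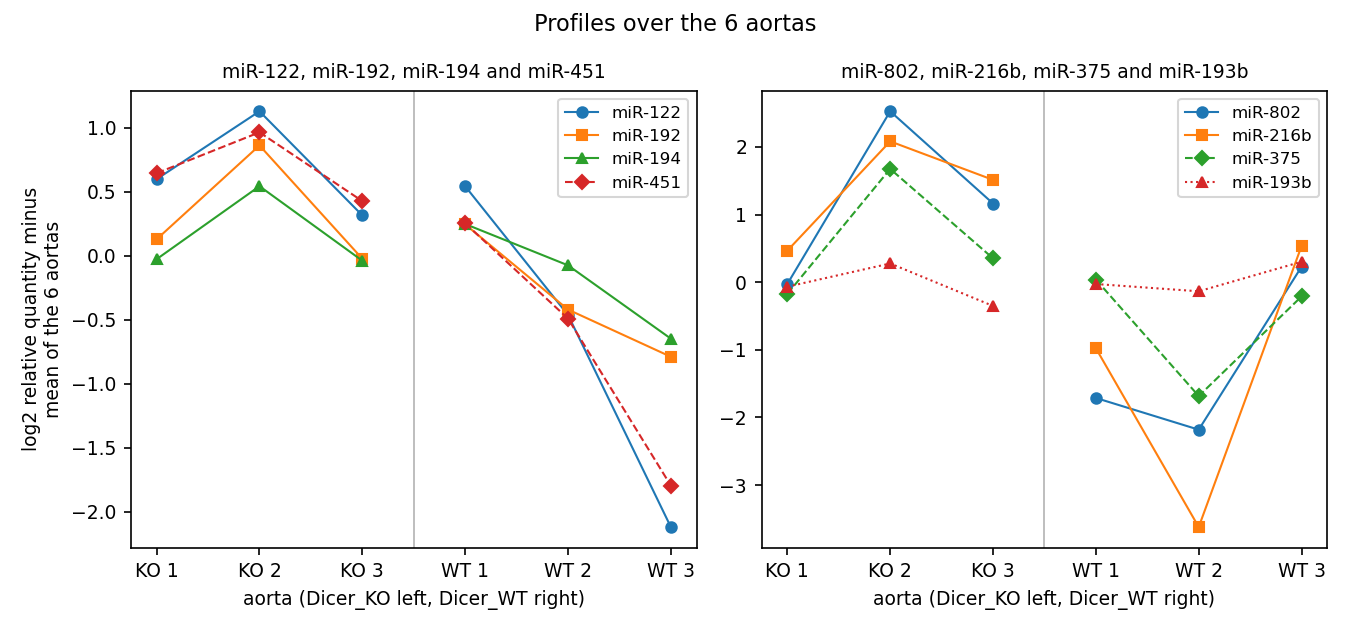
Log2 relative quantity minus the mean of the 6 aortas (y axis) for each aorta (x axis, Dicer_KO left and Dicer_WT right of the line), with lines joining the points of 1 assay within a genotype only to aid the eye. In the left panel miR-122, miR-192, miR-194 and the erythrocyte microRNA miR-451 all have their lowest value in Dicer_WT replicate 3, whereas in the right panel miR-802, miR-216b and the islet microRNA miR-375 have theirs in Dicer_WT replicate 2, and miR-193b varies little.

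The liver list as a whole had no common direction relative to 0. Of 10 listed microRNAs, all tested, 0 passed in either direction, 5 lay above 0 and 5 below, and the median log2 fold change was 0.0094. Over all assays tested, 21.8% lay above 0 and the median was -0.42, so the liver list's median lay above that of all assays. The 6 that are not among the members (miR-148a, miR-101a, miR-101b, miR-365, miR-193 and miR-215) had a summed relative quantity of 4.68 to 5.38 in Dicer_KO aortas and 5.37 to 6.66 in Dicer_WT aortas. Of these 6, miR-193 lay above 0 and the other five below. The first of them, miR-148a, was at -0.52 ± 0.20 (SE, n = 3 each, limma adjusted p = 0.17). Most of these microRNAs are also made in other tissues, as are miR-192, miR-194 and miR-802 of the same list. Of the 8 microRNAs of the gut epithelium list, 0 passed, 2 lay above 0 (miR-192 and miR-194) and 6 below, against 21.8% of all assays above 0. The 6 others of that list, miR-215 and the miR-200 family, summed to 3.49 to 7.34 in Dicer_KO aortas and 4.18 to 7.95 in Dicer_WT aortas, ranges that overlapped.

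miR-802 and miR-216b formed a second pattern. miR-802 was a weak signal, with Ct values of 31.24, 28.97 and 30.29 in Dicer_KO aortas, against 32.67, 33.43 and 31.06 in Dicer_WT aortas. The relative quantities were 2.29, 13.4 and 5.22 in Dicer_KO aortas, against 0.712, 0.514 and 2.73 in Dicer_WT aortas. Dicer_WT replicate 3 lay above Dicer_KO replicate 1, and the other aortas were separated by genotype. The difference on the log2 scale was 2.44 ± 0.874 (SE, n = 3 each, limma adjusted p = 0.148), with a 95% interval of 0.29 to 4.59. Before adjustment the limma p was 0.032. With detection set at a Ct of 32, which puts 2 Dicer_WT wells at the limit, it was 1.75.

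miR-216b had Ct values of 27.90, 26.57 and 27.09 in Dicer_KO aortas, against 29.09, 32.02 and 27.91 in Dicer_WT aortas. Its relative quantities were 3.53, 10.8 and 7.29 in Dicer_KO aortas, against 1.30, 0.208 and 3.70 in Dicer_WT aortas. The Dicer_WT aortas spanned 17.8-fold, the widest span of the 6 members, with Dicer_WT replicate 3 just above Dicer_KO replicate 1. The difference on the log2 scale was 2.71 ± 1.09 (SE, n = 3 each, limma adjusted p = 0.181), with a 95% interval of 0.037 to 5.38. Before adjustment the limma p was 0.048. It was 1.57 without Dicer_WT replicate 2, the aorta with the least miR-216b.

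The cluster neighbours of miR-216b gave no product in some aortas. miR-217, also a pancreatic acinar microRNA, had Ct values of 29.95, 28.66 and 29.19 in Dicer_KO aortas, against 31.17, 40 and 29.46 in Dicer_WT aortas. It gave no product in Dicer_WT replicate 2, where miR-216b was lowest. The log2 ratio of miR-216b to miR-217 was 2.05, 2.08 and 2.09 in Dicer_KO aortas, and 2.08 and 1.55 in the Dicer_WT aortas with product, replicates 1 and 3. With the silent well set to Ct 35, the ratio differed by -0.13 between genotypes (exact permutation p = 0.9, 0.9 adjusted over the 3 pairs), a sign that turned to 0.26 with that well left out and to 0.87 at a Ct cutoff of 32. On the log2 scale miR-217 was higher by 2.83 ± 1.41 (SE, limma adjusted p = 0.226), or by 1.31 with the silent well left out. miR-216a was detected in Dicer_KO replicates 2 and 3 and in Dicer_WT replicate 3, at Ct values of 29.65, 31.05 and 29.32, and in no other aorta, so its ratio to miR-216b was not tested.

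Over the 6 aortas miR-802 and miR-216b correlated at 0.92 with each other (0.83 within genotypes), and at 0.27 and 0.26 with miR-122. With miR-192 they correlated at 0.49 and 0.46, and with miR-194 at 0.26 and 0.18. With miR-193b they correlated at 0.32 and 0.27, but at 0.75 and 0.61 within genotypes. Among the 324 non-member assays detected in all aortas, miR-375, a microRNA of pancreatic islets and gut endocrine cells, was the most alike to both. Its r was 0.86 with miR-802 and 0.89 with miR-216b (0.76 and 0.81 within genotypes). The cluster neighbours miR-217 and miR-216a, without product in some aortas, were not among the assays searched. The relative quantities of miR-375 were 1.36, 4.90 and 1.96 in Dicer_KO aortas, against 1.58, 0.478 and 1.33 in Dicer_WT aortas. Its highest and lowest aortas, Dicer_KO replicate 2 and Dicer_WT replicate 2, were those of miR-802 and miR-216b. Its genotypes overlapped in Dicer_WT replicate 1, which lay above Dicer_KO replicate 1. After miR-375, miR-802 was most like miR-467a* and miR-335-5p (both r = 0.86) and miR-216b most like miR-149 (0.78) and miR-466d-3p (0.75). All 5 microRNAs of the pancreas list were tested and 0 passed, with 4 above 0 and a median of 1.43. Over all assays tested, 21.8% were above 0. The list's median is the value of miR-216a, which turned to -0.84 with undetected wells missing. The values of miR-216a and miR-217 rest in part on wells without product, and miR-216b is itself a member. The 2 markers of the pancreas list that are no members and were detected in every aorta were miR-375 and miR-148a. They summed to 2.22 to 5.57 in Dicer_KO aortas and 1.55 to 2.56 in Dicer_WT aortas, but went opposite ways. miR-375 had a log2 fold change of 1.24 and miR-148a of -0.52. The relative quantities of miR-148a were 0.856, 0.669 and 0.587 in Dicer_KO aortas, against 0.981, 1.07 and 0.953 in Dicer_WT aortas. The part of other tissue in the values of miR-802 and miR-216b was not tested.

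miR-193b stood apart from the other members by its evenness. Its Ct values were 17.88, 17.82 and 18.40 in Dicer_KO aortas, against 17.58, 17.98 and 17.58 in Dicer_WT aortas. The relative quantities were 0.924, 1.17 and 0.759 in Dicer_KO aortas, against 0.950, 0.882 and 1.19 in Dicer_WT aortas, and neither genotype lay to one side. The log2 fold change was -0.094 ± 0.238 (SE, n = 3 each, limma adjusted p = 0.767), and its 95% interval of -0.68 to 0.49 leaves room for a change of that size in either direction. The sign turned to 0.42 relative to U87 and Y1, to 0.27 with mean centring and to 0.39 after quantile normalization.

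The partners of miR-193b varied even less within genotypes, with an SD of 0.091 for miR-365 and 0.157 for miR-193, against 0.275 for miR-193b. Over the 6 aortas miR-193b correlated at 0.27 with miR-365 and at -0.59 with miR-193. miR-365 is made from the same cluster and also beside miR-193a, and its assay reads both loci. The relative quantities of miR-365 were 0.933, 0.853 and 0.794 in Dicer_KO aortas, against 1.04, 0.984 and 0.974 in Dicer_WT aortas. Every Dicer_KO aorta lay below every Dicer_WT aorta, as held for 32.6% of all assays tested. The log2 fold change of miR-365 was -0.22 ± 0.162 (SE, n = 3 each, limma adjusted p = 0.348). It turned to 0.29 relative to U87 and Y1 and to 0.15 with mean centring. The log2 ratio of miR-193b to miR-365 averaged 1.28 ± 0.289 in Dicer_KO and 1.15 ± 0.254 in Dicer_WT aortas (SD, n = 3 each, difference 0.13, exact permutation p = 0.5, 0.75 adjusted over the 3 pairs), and the difference was -0.040 without Dicer_KO replicate 2. The seed relative miR-193a, read as miR-193, had relative quantities of 1.18, 1.15 and 1.16 in Dicer_KO aortas, against 1.06, 1.13 and 0.841 in Dicer_WT aortas (log2 fold change 0.22 ± 0.184, SE, limma adjusted p = 0.395). Its genotypes were narrowly separated, as held for 2.39% of all assays tested in that direction. The log2 fold change of miR-193 turned to -0.0057 with non-normalized Ct. The assays most like miR-193b were miR-10b (r = 0.86), miR-138 (0.78) and miR-673-3p (0.74). In the adipose list 5 of 6 microRNAs were on the array and tested (all but miR-196a), and 0 passed. Of these, 3 were above 0, with a median of 0.19, against 21.8% of all assays above 0. The adipose list holds miR-193b itself. The 4 markers other than miR-193b summed to 4.36 to 5.94 in Dicer_KO aortas and 3.89 to 4.12 in Dicer_WT aortas, without overlap. The largest log2 fold change among them was 0.91, for miR-378, a microRNA of fat and muscle (limma adjusted p = 0.19). Its relative quantities were 1.14, 2.11 and 2.77 in Dicer_KO aortas, against 0.789, 1.17 and 1.08 in Dicer_WT aortas. Taken singly, miR-378 overlapped, with Dicer_KO replicate 1 below Dicer_WT replicate 2. miR-335-5p and miR-455 lay higher in every Dicer_KO aorta, and miR-365 lower. Over all assays tested, 2.39% had every Dicer_KO aorta higher. One of the 4 adipose markers was miR-335-5p, among the assays most like miR-802. The part of fat tissue in the values was not tested.

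**Figure D3:**
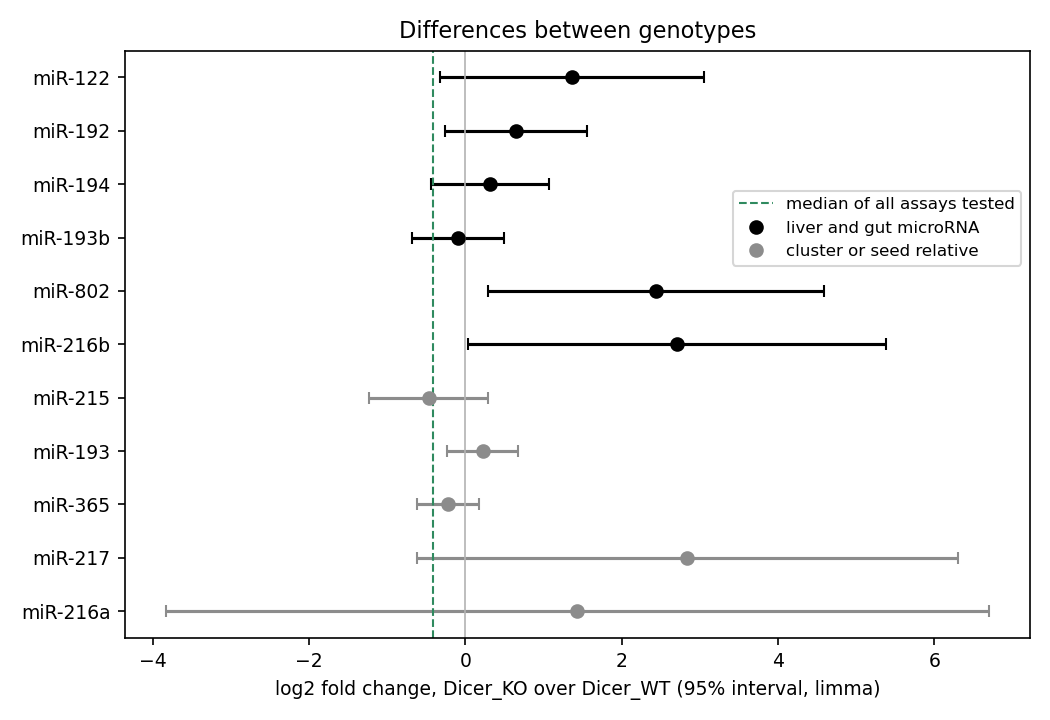
Log2 fold change of Dicer_KO over Dicer_WT aortas (x axis) with 95% intervals from limma, for the 6 liver and gut microRNAs in black and their cluster or seed relatives in grey, beside the median of all assays tested (dashed, -0.42). The intervals of miR-802 and miR-216b lie above 0 before adjustment, and those of the other 9 assays include 0.

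The members differed more in spread than in detection. The SD between aortas of 1 genotype was 0.995 for miR-122, 1.28 for miR-802 and 1.60 for miR-216b on the log2 scale, against a median of 0.342 over all assays tested, and 88.1%, 91.0% and 92.8% of assays had a smaller one. For miR-192 and miR-194 it was 0.50 and 0.398, and for miR-193b 0.275. The members with the largest log2 fold changes were thus those with the widest spread within genotypes. In rank of log2 fold change, 374 of 377 assays lay below miR-216b, 372 below miR-802 and 368 below miR-122.

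**Figure D4:**
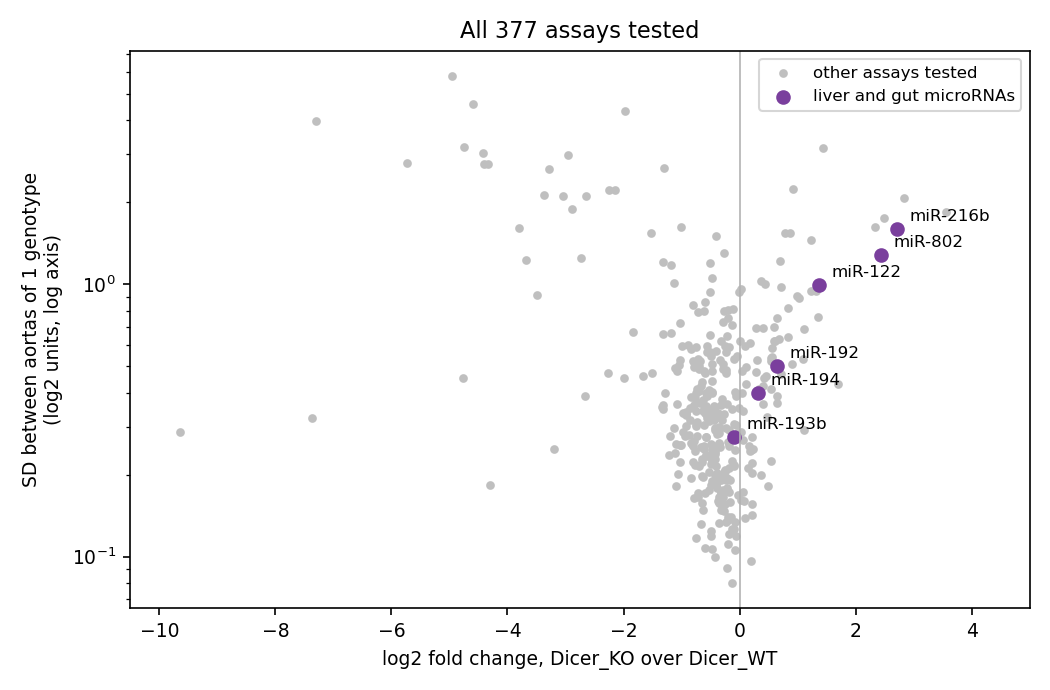
Log2 fold change of Dicer_KO over Dicer_WT aortas (x axis) against the SD between aortas of 1 genotype (y axis, log scale) for all 377 assays tested, 1 point each, with the liver and gut microRNAs in purple. miR-122, miR-802 and miR-216b lie to the right and high, with SDs of 0.995, 1.28 and 1.60, and miR-193b lies near 0 at 0.275.

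The whole distribution moved with the choice of reference. The median log2 fold change of all assays ran from -0.64 with non-normalized Ct to 0.16 relative to U87 and Y1. Measured from that median, every one of the 6 members stood above it in all 19 alternative settings: by 1.15 to 2.32 for miR-122, 0.80 to 1.27 for miR-192, 0.54 to 0.93 for miR-194, 0.13 to 0.54 for miR-193b, 2.14 to 3.68 for miR-802 and 1.94 to 4.16 for miR-216b. Many of these settings could not move a member. All 6 had product in every aorta, so the handling of wells without product and the detection filter left their own fold changes unchanged. These settings could still move the median of all assays. With no filter on detection it was -0.22, which gave the low ends of 0.54 for miR-194 and 0.13 for miR-193b. A variance trend or a replicate block does not alter a fold change. A change of reference moves the median largely along with the members. The 19 settings are thus not 19 separate checks. None of the 6 was called in any of the 19. The adjusted p nearest to the threshold was 0.067, for miR-802 without Dicer_KO replicate 1.

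**Figure D5:**
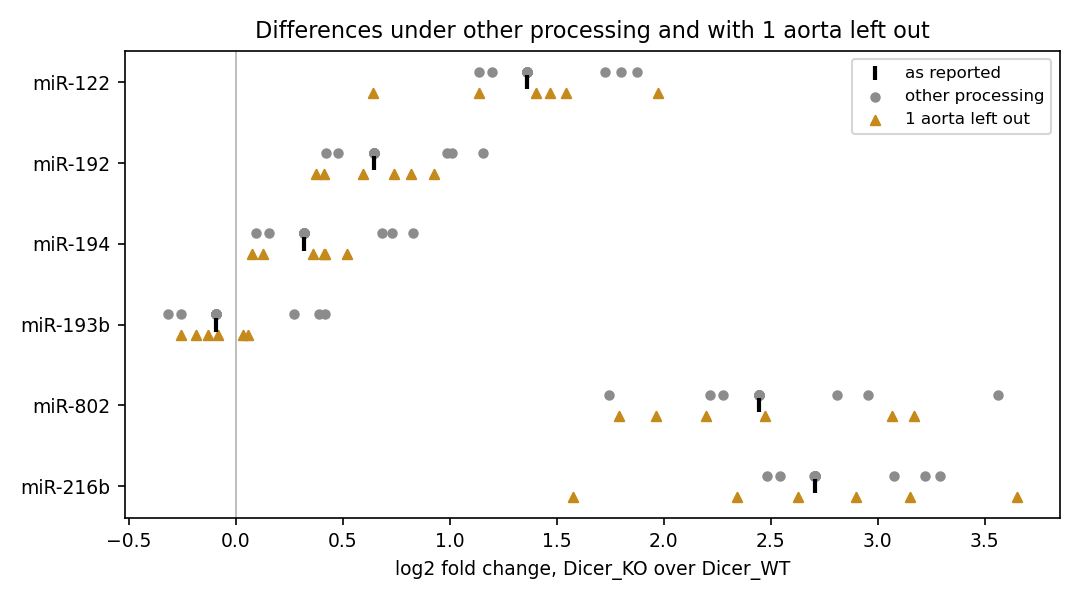
Log2 fold change of Dicer_KO over Dicer_WT aortas (x axis) of each member as reported (bar), under other processing (grey) and with 1 aorta left out (orange triangles). miR-122 has its lowest value, 0.64, without Dicer_WT replicate 3, miR-216b its lowest, 1.57, without Dicer_WT replicate 2, and miR-193b alone has values on both sides of 0.

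In the authors' deposited table of fold changes, miR-802 stood at 5.29, miR-216b at 4.16, miR-122 at 2.05, miR-192 at 1.55, miR-194 at 1.23 and miR-193b at 0.944. From the values, these are ratios of arithmetic means of the relative quantities. Taken instead from geometric means, the folds were 5.44 for miR-802, 6.53 for miR-216b, 2.57 for miR-122, 1.56 for miR-192, 1.25 for miR-194 and 0.937 for miR-193b. The 2 forms differed most for miR-216b and miR-122, the members with the widest span among Dicer_WT aortas.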

How the data were processed

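Per the labels' protocols, aorta RNA went through TaqMan reverse transcription, preamplification and PCR with FAM as dye. For the Ct software, the sources used here name none. The deposited Ct table holds 40 for wells without product, and 5 cells with a decimal comma were read with a point. The deposited relative quantities are a linear ratio. Their log2 equals the mean Ct of U6, snoRNA135 and snoRNA202 (plus snoRNA429 on the second card) minus the assay's Ct, scaled to the Dicer_WT mean (largest difference 5.22e-06). The authors' fold changes are a deposited ratio.

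Undetected wells (Ct 35 or more) were set to 35. The filter kept 377 of 517 assays, those with product in 2 or more aortas of a genotype, which were compared on the log2 scale with limma 3.58.1 in R 4.3.3 (two-sided, Benjamini-Hochberg). Ratios of cluster partners were compared by exact permutation. The steps were tested on simulated data. The labels call the replicates biological, and no batch is given. Each assay was read once per aorta, so precision rests on 3 arrays per genotype. Named besides the members were cluster and seed relatives, the 3 most alike assays of each member among those detected in all aortas, and marker lists. Members and lists were chosen with earlier results of these data known. Exceptions, chosen after their values were seen, were the ratios to miR-215 and the ratios of miR-122 to miR-451, miR-25, miR-192 and miR-194. No star strand of a member was among the assays used.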

Additional observations from a re-analysis of the deposited data

How the results depend on the processing

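The log2 fold changes of miR-122, miR-192, miR-194, miR-802 and miR-216b stayed above 0 and short of the threshold in all 19 alternatives each. Many of these could not move them: the handling of wells without product, the detection filter, the variance trend and the replicate block left all members' fold changes unchanged. The log2 fold change of miR-193b turned to 0.42 relative to U87 and Y1, 0.27 with mean centring and 0.39 after quantile normalization, and ran from -0.26 to 0.058 with 1 aorta left out. Among relatives, miR-215 turned to 0.040 (U87 and Y1) and 0.36 (quantile normalization), miR-365 to 0.29 (U87 and Y1) and 0.15 (mean centring), miR-193 to -0.0057 (non-normalized Ct) and miR-216a to -0.84 (undetected wells missing). The ratio of miR-193b to miR-365 ran from -0.040 to 0.27 with 1 aorta left out. That of miR-216b to miR-217 turned to 0.87 at a Ct cutoff of 32 and to 0.26 with undetected wells missing, and ran from -0.4545 to 0.26 with 1 aorta left out, since it rests on a silent well.

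Over the whole table, 7 assays were called lower and 0 higher. The counts lower were 24 at a Ct cutoff of 32, 13 with Ct 40 as measured, 16 with undetected wells missing, 20 over assays detected in all 6 aortas and 20 with a variance trend. The counts higher were 2 relative to U87 and Y1, 1 with mean centring, 3 after quantile normalization, 2 at a Ct cutoff of 32, 1 with undetected wells missing, 2 over assays detected in all 6 aortas and 1 with a variance trend. With 1 aorta left out they ran from 5 to 55 lower and from 0 to 9 higher, with 55 and 9 without Dicer_KO replicate 1. Apart from the smaller number of assays in some of these settings, the cause was not tested. With the replicate block, 7 were lower and 0 higher, and the members' values were the same, with adjusted p of 0.154 for miR-802 and 0.169 for miR-122. Same-numbered aortas did not deviate together (r = -0.084, -0.097 and 0.043), so the numbers were not taken as pairs. A Ct near the cutoff limits miR-802, and wells without product limit miR-216a and miR-217.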
